A study of Mus musculus with 14 samples.

Results

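The Hox genes are 39 homeobox genes that the mouse carries in 4 clusters, Hoxa, Hoxb, Hoxc and Hoxd, each gene numbered from 1 to 13 by its paralog group. They were taken by symbol, as every gene named Hoxa, Hoxb, Hoxc or Hoxd followed by a number, without their antisense transcripts, and no measured value entered that choice. Among the 36536 genes counted were 38 Hox genes, and Hoxd4 was not analysed here. The clusters lie on chromosomes 6 (Hoxa), 11 (Hoxb), 15 (Hoxc) and 2 (Hoxd). The question put to the data was how the level of each cluster and paralog group differed between colon and ileum, in crypts with and without Atoh1 and in sorted Atoh1-expressing cells.

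RNA was measured in 14 mouse libraries of 6 groups. Colon and ileum (distal small intestine) crypts, the epithelial pits that hold the stem and progenitor cells, came from mice aged 6 to 8 weeks. KO crypts (2 libraries per tissue) were Atoh1 f/f; VilCreERT2, with both Atoh1 alleles floxed and a Cre driven by the villin promoter of gut epithelium, and WT crypts (2 per tissue) were from littermates, Atoh1 f/+; VilCreERT2, so that the WT group also carried the Cre and 1 floxed allele. GFP libraries (3 per tissue) were live GFP-positive, 7AAD-negative cells sorted from crypts of Atoh1GFP/GFP mice, in which both alleles encode an ATOH1 fused to GFP, and no age was given for them. Atoh1 encodes the transcription factor that the secretory lineage of the gut epithelium requires. The labels do not say that libraries of a group came from separate animals, so p-values measure the spread between these libraries.

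Hox genes encode homeodomain transcription factors that give cells along the head-to-tail axis their regional identity. Within a cluster the genes lie in the order in which they are switched on, low paralog numbers being used toward the head and high numbers toward the tail, a relation called collinearity. In the gut tube, genes of paralog groups 9 to 13 are known from the hindgut, where Hoxa13 and Hoxd13 are needed to form the terminal gut, and both the epithelium and the connective tissue around it express Hox genes. Polycomb proteins keep clusters silent, trithorax proteins keep them active, retinoic acid and the ParaHox factors CDX1 and CDX2 activate them, and PBX, MEIS and PKNOX proteins bind DNA together with HOX proteins.

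For 21 of the 38 genes the RefSeq table held a start site, and 6 of these promoters are shown as the 250 bases before the start, on GRCm38.p6, because the results turn on these genes. Hoxa13 and Hoxd13 were counted in the colon and barely in the ileum, Hoxb4 and Hoxb8 in both tissues, Hoxa9 was lower in sorted colon cells than in colon crypts, and Hoxd8 was higher. Capitals mark matches, on either strand, to CAATAAA (bound by CDX and posterior HOX proteins), TGATNNAT (bound by PBX-HOX pairs), AGGTCA (the retinoic acid receptor half-site) or TATAAA (the TATA box). All sequences read 5′ to 3′ on the strand of the gene.
Hoxa13 promoter, chr6:52260881-52261130, minus strand: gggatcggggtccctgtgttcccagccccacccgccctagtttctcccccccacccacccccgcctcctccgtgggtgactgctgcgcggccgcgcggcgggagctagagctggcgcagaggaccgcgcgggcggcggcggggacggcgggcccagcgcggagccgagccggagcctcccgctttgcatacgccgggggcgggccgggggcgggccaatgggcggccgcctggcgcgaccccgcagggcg
Hoxa9 promoter, chr6:52227371-52227620, minus strand: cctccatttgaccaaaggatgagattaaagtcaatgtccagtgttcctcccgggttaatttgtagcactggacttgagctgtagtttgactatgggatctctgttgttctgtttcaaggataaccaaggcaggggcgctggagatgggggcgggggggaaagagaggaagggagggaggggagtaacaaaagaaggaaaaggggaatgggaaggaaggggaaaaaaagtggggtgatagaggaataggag
Hoxb4 promoter, chr11:96318017-96318266, plus strand: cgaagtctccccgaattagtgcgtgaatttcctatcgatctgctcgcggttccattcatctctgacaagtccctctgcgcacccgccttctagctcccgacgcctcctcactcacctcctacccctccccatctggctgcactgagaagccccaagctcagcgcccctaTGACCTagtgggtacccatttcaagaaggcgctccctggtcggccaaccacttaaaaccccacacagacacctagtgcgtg
Hoxb8 promoter, chr11:96281655-96281904, plus strand: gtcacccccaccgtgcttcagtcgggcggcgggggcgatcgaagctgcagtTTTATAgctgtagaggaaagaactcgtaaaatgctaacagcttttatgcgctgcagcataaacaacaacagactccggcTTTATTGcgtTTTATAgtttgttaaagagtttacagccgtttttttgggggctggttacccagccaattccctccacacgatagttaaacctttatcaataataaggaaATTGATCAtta
Hoxd13 promoter, chr2:74667975-74668224, plus strand: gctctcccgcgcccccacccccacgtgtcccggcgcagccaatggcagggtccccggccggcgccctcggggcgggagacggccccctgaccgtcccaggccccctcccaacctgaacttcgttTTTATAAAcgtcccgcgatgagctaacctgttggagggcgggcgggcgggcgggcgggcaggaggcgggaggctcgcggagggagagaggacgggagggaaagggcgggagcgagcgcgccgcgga
Hoxd8 promoter, chr2:74704365-74704614, plus strand: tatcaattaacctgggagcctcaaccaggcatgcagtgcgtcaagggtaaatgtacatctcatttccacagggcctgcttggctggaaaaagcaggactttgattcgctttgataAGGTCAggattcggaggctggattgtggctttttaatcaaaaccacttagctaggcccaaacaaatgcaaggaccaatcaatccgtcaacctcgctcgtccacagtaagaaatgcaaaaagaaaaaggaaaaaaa

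CAATAAA stood in 1 of the 23 Hox promoters of these 21 genes, that of Hoxb8, and in 4.2% of all 32851 promoters of the table taken over the same length. TGATNNAT stood in 4 (Hoxa2, Hoxb1, Hoxb8 and 1 of the pair of Hoxd11 promoters) against 7.68% of all. AGGTCA stood in 5 (Hoxb4, Hoxc4, Hoxd3, Hoxd8 and Hoxd10) against 14% of all, and TATAAA in 3 (Hoxa10, Hoxb8 and Hoxd13) against 12.4% of all. These are matches of letters within 250 bases.

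Gene counts per library were about 7478420 (ileum GFP 1) to 12991900 (colon GFP 1), and 1 count was worth 0.0683 to 0.17 CPM. CPM, the usual depth-scaled unit, is a gene's count relative to the library's gene total, after TMM scaling has set the libraries to 1 scale. Atoh1 itself had 44.7 and 62.6 CPM in colon WT, 5.2 and 5.9 in colon KO, 41.0 and 39.5 in ileum WT, 1.02 and 0.526 in ileum KO, and 195 to 323 in the GFP libraries. All 9 epithelial markers had counts in every library. Their sum was 9868 to 10806 CPM in colon WT and 4614 to 5576 in colon GFP. In the ileum it was 8913 to 11150 in WT and 3887 to 6806 in GFP. Mitochondrial ribosomal RNA took 30.0 to 44.9% of gene counts in the GFP libraries and at most 0.219% in crypts. Summed stromal markers (17 genes) were 141 to 302 CPM in colon crypts, 87 to 198 in ileum crypts, 27.2 to 35.9 in colon GFP and 18.4 to 21.3 in ileum GFP. Summed immune markers (18 genes) were 118 to 243, 75.8 to 592, 15.9 to 22.7 and 66.7 to 78.3 in the same order, and the lowest and highest ileal crypt values were the WT libraries 2 and 1. The stromal sums of ileum WT 1 and 2 (198 and 168 CPM) held 10.4 and 112 CPM of Fn1. Apart from Fn1 and Col1a1, every counted stromal marker was lower in WT 2, such as Dcn (17.7 and 0.914) and Myh11 (13.3 and 0.249). The part of stromal cells in the Hoxb levels of these libraries was not tested.

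Several libraries stood apart from their group and touch results below. Colon GFP 1 held ileal and Paneth transcripts, with 1432 CPM of Lyz1, 308 of Defa24 and 28.8 of Apoa1 against at most 42, 4.23 and 0.374 in colon GFP 2 and 3. Ileum GFP 2 held 29 counts of Hox genes of paralog groups 10 to 13, against 0 in GFP 1 and 5 in GFP 3. Ileum GFP 1 had higher Hoxb levels than the other ileum GFP libraries, and ileum WT 1 higher than WT 2.

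Cluster and paralog number together described where a Hox gene was detected. Hoxb genes from Hoxb3 to Hoxb9 had counts in the crypts of both tissues, the Hoxa genes from Hoxa6 upward and the Hoxd genes were at or near 0 in the ileum and present in the colon, and Hoxc genes were nearly absent everywhere. Summed over its 11 genes, the Hoxa cluster had 155 ± 50.2 CPM in colon WT, 181 ± 10.1 in colon KO and 106 ± 14.1 in colon GFP (mean ± SD, n = 2, 2 and 3). In the ileum the same sum was 3.66 ± 2.7 in WT, 0.996 ± 0.0269 in KO and 6.39 ± 1.4 in GFP. The 10 Hoxb genes summed to 299 ± 8.39, 329 ± 33.6 and 210 ± 26.4 CPM in colon WT, KO and GFP, and to 68.6 ± 28.8, 67.5 ± 9.77 and 49.7 ± 38.5 in the ileum. The 8 Hoxd genes summed to 57.8 ± 1.9, 61.4 ± 3.12 and 33.4 ± 3.59 CPM in the colon and to 0.197 ± 0.0441, 0.308 ± 0.117 and 0.787 ± 0.698 in the ileum. Colon and ileum libraries did not overlap in any of these 3 sums.

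**Figure D1:**
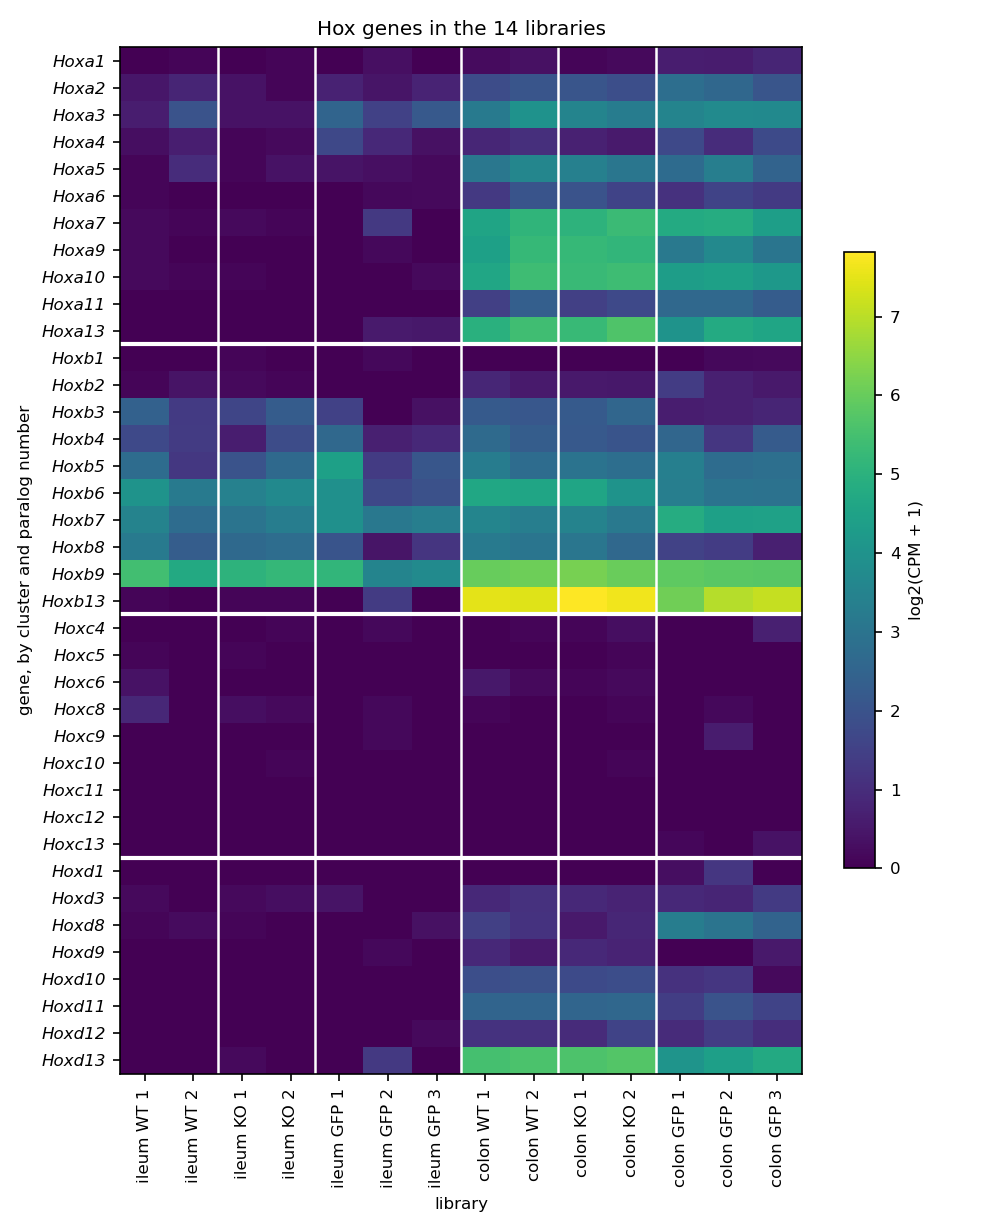
Heat map of 38 Hox genes (rows, by cluster and paralog number, white lines between clusters) in 14 libraries (columns, by group), coloured by log2(CPM + 1). The Hoxb genes from Hoxb3 to Hoxb9 are coloured in both tissues, Hoxb13 with the Hoxa and Hoxd genes mainly in the colon, and the 9 Hoxc genes stay near 0.

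Per kilobase of exon, which allows levels of different genes to be compared, Hoxb13 was first in the colon, with a mean of 79.96 CPM per kilobase in WT, 95.7 in KO and 50.0 in GFP. Hoxb9 followed with 25.2, 26.7 and 21.7 CPM per kilobase. Hoxd13 (18.5) and Hoxa13 (14.5) came next in colon WT, whereas in colon GFP the third place went to Hoxb7 (15). In the ileum the order began with Hoxb9, at 13.3, 13.2 and 7.43 CPM per kilobase in WT, KO and GFP. Hoxb6 (5.93) and Hoxb7 (5.19) followed in ileum WT, and Hoxb7 (6.75) and Hoxb6 (3.29) in ileum GFP.

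The Hoxc cluster gave almost no counts. Its highest count in 1 library was 11, for Hoxc8 in ileum WT 1, and Hoxc11 and Hoxc12 had no count in any library. None of the 9 Hoxc genes passed the filter on low counts in either main fit. In all, 12 Hox genes passed it in neither fit, and the highest level among them was 1.37 CPM, from the 11 counts of Hoxd1 in colon GFP 2. The other 26 Hox genes were tested among all libraries, and 25 of them (all but Hoxb2) among the crypts.

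Colon WT crypts had higher levels of 18 of the 25 tested Hox genes than ileum WT crypts and lower levels of none (edgeR quasi-likelihood test, adjusted p under 0.05), against 10.2% of all genes tested higher in the colon. The calls covered 9 of 10 tested Hoxa genes, 7 of 7 Hoxd genes and 2 of 8 Hoxb genes, Hoxb9 and Hoxb13. By paralog number they covered 11 of 11 tested genes of groups 9 to 13, 4 of 8 of groups 5 to 8 and 3 of 6 of groups 1 to 4. Genes with few or no ileal counts passed the filter on low counts through the colon groups, here and in the other comparisons of the tissues. For these genes a lower level in the colon could not have been called, so 11 of 11 and 7 of 7 partly reflect the filter. The median log2 difference of the 25 genes was 4.14, or 3.55 with the 7 genes absent from ileum WT set at their lower bound, and that of all genes tested was -0.01. In KO crypts 17 of 25 were higher in the colon, against 13.1% of all genes, and the median was 5.37, or 3.83 with 8 genes at their bound. Over all 8 crypt libraries 20 of 25 were higher, against 19.2% of all genes, adding Hoxa4 and Hoxb6 to the WT calls.

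Hoxb13, the last gene of its cluster and known from the hindgut and prostate, had the highest level per kilobase of the Hox genes in the colon and almost none in ileal crypts. It had 180 and 173 CPM in colon WT, 224 and 198 in colon KO, and 0.0762 and 0 in ileum WT and 0.0781 and 0.0752 in ileum KO, each of the 3 ileal values above 0 being 1 count. No ileal crypt library came near a colon library. The pooled ratio of colon to ileum was 4428 in WT crypts, with a 95% counting interval of 794 to 174949 (edgeR adjusted p = 4.31e-06), and 2752 in KO crypts with an interval of 761 to 22726 (adjusted p = 3.13e-06).

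Hoxa13 and Hoxd13, the paralogs of Hoxb13 that are needed in the terminal hindgut, followed the same pattern. Hoxa13 had 29.9 and 41.7 CPM in colon WT, 37.3 and 49.2 in colon KO and no count in any of the 4 ileal crypt libraries. With a floor of 3 counts over the group it was at least 306-fold higher in the colon in WT and at least 377-fold in KO (edgeR adjusted p = 0.000479 and 0.000347). Hoxd13 had 44.3 and 47.4 CPM in colon WT, 48.8 and 51.8 in colon KO, and among the ileal crypts only 2 counts, in KO 1. It was at least 386-fold higher in the colon in WT crypts (edgeR adjusted p = 6.18e-05).

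The rest of the Hoxd genes were lower in level, and some of them had ileal counts. Hoxd10, Hoxd11 and Hoxd12, which pattern the limb and the hindgut, had 0.939 to 5.06 CPM in the colon crypts and no count in the ileal crypts. The differences in WT were at least 23.4-fold, 39.7-fold and 9.93-fold (edgeR adjusted p = 0.00285, 0.00109 and 0.0165). Hoxd9 had 7 to 12 counts in each colon crypt library and none in the ileal ones (at least 5.45-fold, adjusted p = 0.0298), and with the replicate number as a block its adjusted p in WT was 0.056. Hoxd8 had 1.82 and 1.23 CPM in colon WT against 0.0762 and 0.166 in ileum WT (pooled ratio 12.5, counting interval 3.97 to 63.2, adjusted p = 0.0189), and in KO crypts its call (adjusted p = 0.0329) was lost with the block (0.058). Hoxd3 had 0.866 and 1.16 CPM against 0.152 and 0 in WT (pooled ratio 13, interval 3.26 to 113, adjusted p = 0.0279), and in KO crypts it was not called (adjusted p = 0.102). Of the exon bases of Hoxd3 53.1% are shared with the readthrough gene Gm28230, so its counts are uncertain.

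Along the Hoxa cluster the point estimate of the WT ratio of colon to ileum increased from Hoxa2 to Hoxa9, with Hoxa4 as an exception. From Hoxa6 on it rested on 3 or fewer ileal WT counts per gene, so those genes cannot be put in order. Hoxa2, known from the hindbrain and branchial arches, had 2.51 and 3.14 CPM in colon WT and 0.381 and 0.748 in ileum WT, a log2 difference of 2.33 ± 0.53 (SE; edgeR adjusted p = 0.0227). Hoxa3, known from thymus and parathyroid development, had 8.22 and 14.9 CPM against 0.533 and 2.99 (2.74 ± 0.67, adjusted p = 0.0321). Hoxa4 had 0.779 and 1.09 CPM against 0.229 and 0.582 and was not called (1.23 ± 0.62, adjusted p = 0.219). Hoxa5, known from lung and stomach development, had 7.62 and 11 CPM against 0.0762 and 0.997 (4.14 ± 0.77, adjusted p = 0.012). In each of these 4 genes ileum WT 2 was the higher ileal library. The WT libraries of the tissues did not overlap for any of them, as for 22 of the 25 tested Hox genes in all. The share of all genes without overlap was not computed.

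From Hoxa6 on, the ileal levels were a few counts at most. Hoxa6 had 1.47 and 3.08 CPM in colon WT and 1 count in ileum WT (pooled ratio 59.6, interval 10.3 to 2391). Hoxa7 had 22.8 and 33.6 CPM in colon WT and 3 counts in ileum WT (pooled ratio 242, interval 82.4 to 1175, edgeR adjusted p = 5.5e-05). Hoxa9 had 20.5 and 36.6 CPM in colon WT against 2 counts (ratio 371, interval 102 to 3069). Hoxa9 is best known from blood cell progenitors and from the forming limb, and ileal and colon WT libraries did not overlap for any of these 3 genes. Hoxa10, which the uterus requires, had 23.5 and 40.8 CPM against 3 counts (ratio 278, interval 94.9 to 1353, adjusted p = 0.000147). Hoxa11, a limb and kidney gene, had 1.82 and 4.17 CPM and no ileal count (at least 26.3-fold higher, adjusted p = 0.00792), and 35% of its exon bases lie opposite the antisense gene Hoxa11os, so its reads cannot be told apart from those of Hoxa11os without a known strand setting. The same holds for Hoxa7, which shares 20.4% of its exon bases with the antisense gene Hoxaas3.

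The Hoxb cluster below Hoxb13 was expressed in both tissues. Hoxb9, known from the thoracic skeleton, was the most abundant of these genes, with 63.1 and 66.7 CPM in colon WT, 72.9 and 64.6 in colon KO, 42.9 and 25.6 in ileum WT and 32.3 and 35.8 in ileum KO. Every colon crypt library lay above every ileal one, by a log2 difference of 0.94 ± 0.22 in WT and 0.98 ± 0.22 in KO (edgeR adjusted p = 0.0266 and 0.0181). Hoxb6 had 24.1 and 23.4 CPM in colon WT against 15.2 and 8.14 in ileum WT (1.04 ± 0.31, adjusted p = 0.0613), and passed over all crypts (0.91 ± 0.22, adjusted p = 0.0178), where colon KO 2 (15.1) and ileum WT 1 overlapped. Hoxb7 had 10.6 and 9.09 CPM against 10.3 and 5.73 in WT (0.31 ± 0.29, adjusted p = 0.517). Hoxb8 had 8.22 and 7.18 CPM against 8.07 and 3.91 (0.37 ± 0.35, adjusted p = 0.513), so that neither of these neighbours differed by more than the spread between libraries. Hoxb3, Hoxb4 and Hoxb5 were not called in WT or KO crypts, with log2 differences of 0.27 to 1.29 and 0.50 to 1.05. With the replicate block Hoxb4 (adjusted p = 0.0446) and Hoxb5 (0.0496) passed over all crypts.

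The WT calls depended on the colon libraries. Without colon WT 1 there were 11 calls and without colon WT 2 there were 9, of 26 and 27 genes tested, with 1 library left in the group. The 9 genes called under each of the 10 alternatives run for WT crypts were Hoxa7, Hoxa9, Hoxa10, Hoxa11, Hoxa13, Hoxb13, Hoxd10, Hoxd11 and Hoxd13. Without colon WT 2 the adjusted p (edgeR) was 0.122 for Hoxa2, 0.155 for Hoxa3, 0.0665 for Hoxa5, 0.0525 for Hoxa6, 0.121 for Hoxb9, 0.148 for Hoxd3, 0.0711 for Hoxd8, 0.0912 for Hoxd9 and 0.0757 for Hoxd12. Without colon WT 1 Hoxa5 and Hoxa6 kept their call and the other 7 lost theirs. In KO crypts 11 genes were called under each alternative, those 9 with Hoxa2 and Hoxa6.

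**Figure D2:**
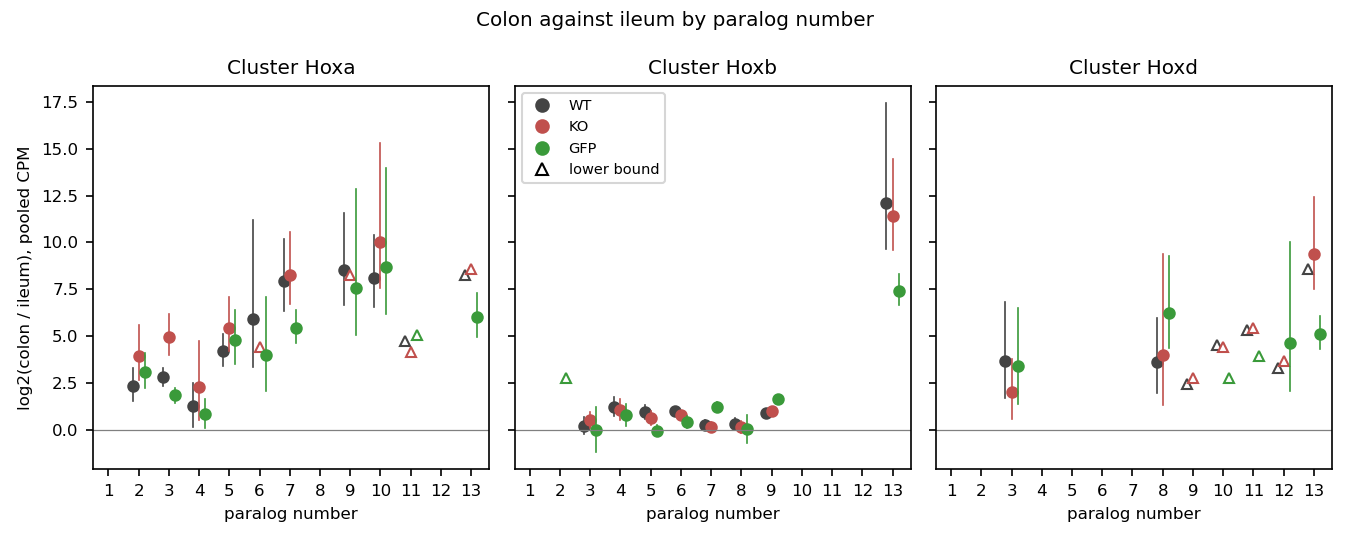
Pooled ratio of colon to ileum (log2 axis) by paralog number in the Hoxa, Hoxb and Hoxd clusters for WT crypts, KO crypts and GFP cells, for genes tested. Circles are ratios of summed scaled counts with 95% counting intervals, and open triangles are lower bounds for genes without an ileal count. Hoxb3 to Hoxb9 lie near 0, Hoxb13 is far above, and Hoxa ratios are larger from Hoxa5 on.

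No Hox gene was called between KO and WT crypts. Nearly all other genes tested were not called either, so 0 calls do not set the Hox genes apart. In the colon 0 of 25 tested Hox genes were called between KO and WT crypts by edgeR, against 0.153% of all genes, 0 had an unadjusted p under 0.05, and DESeq2 also called 0. The lowest adjusted p was 0.708, for Hoxd8 (0.433 and 0.773 CPM in KO against 1.82 and 1.23 in WT, without overlap). Hoxb13 was 0.25 ± 0.13 higher in KO on the log2 scale (adjusted p = 0.75), the KO libraries lying above the WT ones. In the ileum 0 of 25 were called, against 1.22% of all genes, and DESeq2 also called 0. There 1 gene, Hoxa3, had an unadjusted p under 0.05, with 0.312 and 0.301 CPM in KO against 0.533 and 2.99 in WT (log2 difference -2.44 ± 0.90, adjusted p = 0.307). Its adjusted p was 0.00969 without ileum WT 1, a comparison with WT 2 alone.

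The difference between tissues did not differ detectably between KO and WT crypts for any of the 25 Hox genes. The test of that difference called 0 of them, against 0.00694% of all genes, with 0 at an unadjusted p under 0.05 and 0 by DESeq2. It called 1 gene of the 14415 tested, so 0 calls do not set the Hox genes apart. For Hoxa3 the log2 difference between tissues was 4.90 ± 0.82 in KO and 2.74 ± 0.67 in WT crypts, and for Hoxb9 it was 0.98 ± 0.22 and 0.94 ± 0.22. These comparisons share the WT libraries with those of sorted cells against crypts below.

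In sorted Atoh1-GFP cells, too, genes of the Hoxa and Hoxd clusters, Hoxb9 and Hoxb13 were higher in the colon. Of 26 tested Hox genes 19 were higher in colon GFP than in ileum GFP and 0 lower (edgeR), against 12.6% of all genes higher, with a median log2 difference of 4.12, or 3.13 with 4 genes at their bound. The calls covered 9 of 10 tested Hoxa genes, 6 of 7 Hoxd genes and 4 of 9 Hoxb genes. The WT, KO and GFP comparisons of the tissues contrast separate libraries, but their estimates of the spread share libraries. Of all genes tested 10.2, 13.1 and 12.6% were higher in the colon in these comparisons, and the share higher in all 3 was not computed. In all 3, 16 Hox genes were higher in the colon: Hoxa2, Hoxa3, Hoxa5, Hoxa6, Hoxa7, Hoxa9, Hoxa10, Hoxa11, Hoxa13, Hoxb9, Hoxb13, Hoxd8, Hoxd10, Hoxd11, Hoxd12 and Hoxd13. The 4 others called in at least 1 of the 3 were Hoxb2, Hoxb7, Hoxd3 and Hoxd9.

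In the sorted cells Hoxb13 had 68.7, 122 and 140 CPM in colon GFP and 0, 1.59 and 0 in ileum GFP. The lowest colon value was that of colon GFP 1, which held ileal transcripts, and all 13 ileal counts came from ileum GFP 2. The part of the ileal transcripts in that colon value was not tested. The pooled ratio was 172 (counting interval 100.4 to 324, edgeR adjusted p = 5.4e-06). Hoxa13 had 15.1, 26.6 and 23.3 CPM in the colon and 0, 0.49 and 0.428 in the ileum (ratio 63.8, interval 30.7 to 159, adjusted p = 3.81e-06). Hoxd13 had 15.4, 20.4 and 25.7 CPM in the colon and 0, 1.47 and 0 in the ileum (ratio 35, interval 19.8 to 68.1, adjusted p = 0.000154). Leaving out colon GFP 1 and ileum GFP 2 together left 14 calls of 25 genes tested. Hoxb2 was then not tested, and the calls of Hoxa3, Hoxb7, Hoxd3 and Hoxd10 were lost, with adjusted p (edgeR) of 0.0621, 0.0715, 0.101 and 0.0557.

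Hoxb7 and Hoxb2 were called between the tissues in sorted cells and not in crypts, where Hoxb2 was not tested. Hoxb7 had 27.7, 20.5 and 21.4 CPM in colon GFP and 14.3, 7.83 and 9.14 in ileum GFP, a log2 difference of 1.17 ± 0.27 (edgeR adjusted p = 0.0067). Hoxb2 had 15, 5 and 3 counts in colon GFP and none in ileum GFP (at least 6.69-fold higher, adjusted p = 0.00934), and it shares 27.3% of its exon bases with the antisense gene Hoxb3os. Whether the difference between tissues itself differed from that in WT crypts was tested, and no Hox gene passed: 0 of 26, against 2.19% of all genes, with 4 at an unadjusted p under 0.05 and 1 by DESeq2, Hoxa13. The lowest adjusted p was 0.103, for Hoxa13, and that of Hoxb7 was 0.304. Without ileum GFP 1 Hoxa13 (adjusted p = 0.0463) and Hoxb9 (0.0197) passed.

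Compared with WT crypts, sorted colon cells had lower levels of 6 Hox genes, Hoxa9, Hoxa10, Hoxb3, Hoxb6, Hoxb8 and Hoxd13, and higher levels of 2, Hoxb7 and Hoxd8, of 26 tested. Among all genes tested 23.6% were lower and 22.3% higher in the sorted cells, so both counts lie at or below the background share. Sorting and the Atoh1 allele differ between these groups along with the cell type and cannot be told apart from it. In these bulk samples fewer cells of a type and less RNA per cell cannot be told apart either. Stromal and immune markers moved the same way as the 6 lower genes, from 251 to 302 and from 183 to 243 summed CPM in colon WT to 27.2 to 35.9 and 15.9 to 22.7 in colon GFP, and the part of those cells in the results was not tested. Of the stromal markers 16 of 17 had counts in each colon WT library and 11 to 16 in colon GFP, and Col6a1 had none in any library. Of the immune markers 18 of 18 and 14 to 18 had counts. Summed epithelial markers were also lower in colon GFP (4614 to 5576 CPM) than in colon WT (9868 to 10806).

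Hoxa9 fell by 1.67 ± 0.32 on the log2 scale (edgeR adjusted p = 0.000983). It had 20.5 and 36.6 CPM in colon WT, 36.9 and 34.6 in KO and 7.97, 11.7 and 7.17 in GFP, so that every sorted library lay below every crypt library. Hoxb8, known from haematopoietic progenitors and the nervous system, had 8.22 and 7.18 CPM in colon WT, 7.44 and 5.2 in KO and 1.91, 1.62 and 0.598 in GFP (-2.44 ± 0.56, adjusted p = 0.00317). Hoxa9 and Hoxb8 were called under each of the 12 alternatives run for this comparison.

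Hoxb3 had 3.64 and 3.35 CPM in colon WT and 0.531, 0.623 and 0.747 in GFP, 5 counts in each sorted library (-2.46 ± 0.79, edgeR adjusted p = 0.0211). Hoxb6 had 24.1 and 23.4 CPM in WT and 9.14, 6.85 and 6.72 in GFP (-1.64 ± 0.56, adjusted p = 0.0326). Hoxa10 had 23.5 and 40.8 CPM in WT and 19.6, 20.9 and 17 in GFP (-0.75 ± 0.26, adjusted p = 0.0283). Hoxd13 had 44.3 and 47.4 CPM in WT and 15.4, 20.4 and 25.7 in GFP (-1.17 ± 0.43, adjusted p = 0.0441). The groups did not overlap for any of these 4 genes, as for 14 of the 26 tested Hox genes in all. The share of all genes without overlap was not computed. DESeq2 did not call Hoxd13 (adjusted p = 0.444). All 4 lost their call without colon GFP 1 (4 Hox calls left) and without colon WT 2 (2 left), and all but Hoxa10 without colon GFP 2 or colon WT 1 (5 left in each case). Hoxa10 and Hoxb6 lost theirs without colon GFP 3. The adjusted p (edgeR) rose to at most 0.0761 for Hoxb3, 0.115 for Hoxb6, 0.469 for Hoxa10 and 0.175 for Hoxd13, and without colon GFP 1 and ileum GFP 2 together only Hoxa10 lost its call (0.0558). Hoxb3 shares 52.9% of its exon bases with the antisense gene Hoxb3os.

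The genes that rose in the sorted colon cells were Hoxb7 and Hoxd8. Hoxd8 had 1.82 and 1.23 CPM in colon WT, 0.433 and 0.773 in KO and 8.93, 6.97 and 4.63 in GFP, a log2 difference of 2.17 ± 0.60 from WT (edgeR adjusted p = 0.00977). Hoxb7 had 10.6 and 9.09 CPM in WT, 10.2 and 7.94 in KO and 27.7, 20.5 and 21.4 in GFP (1.24 ± 0.30, adjusted p = 0.00417). Every sorted library lay above every crypt library for both genes, while Hoxb6 and Hoxb8, the genes on either side of Hoxb7 in the cluster, fell. Without colon WT 2 the adjusted p was 0.0978 for Hoxd8 and 0.0502 for Hoxb7, The most abundant genes, Hoxb13 (-0.68 ± 0.39, adjusted p = 0.175) and Hoxb9 (-0.22 ± 0.37, adjusted p = 0.655), were not called.

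**Figure D3:**
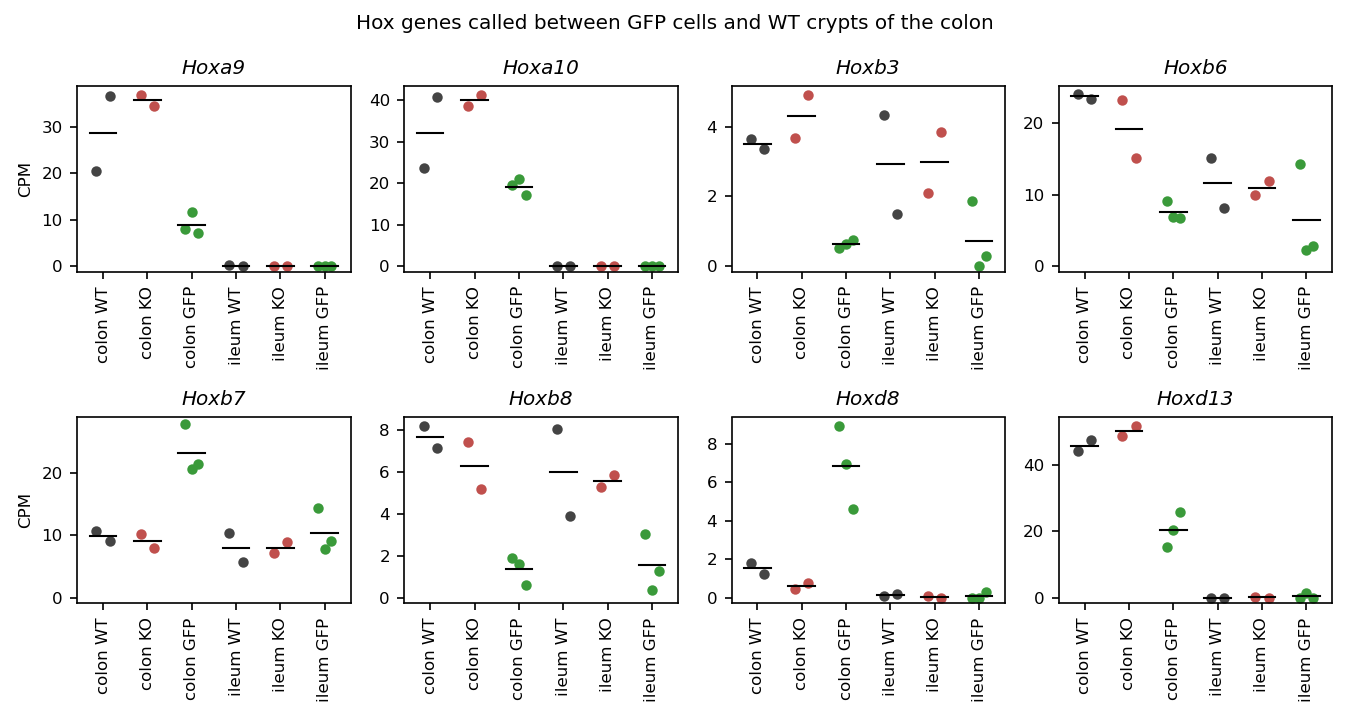
CPM per library (points) and group mean (bar) of the 8 Hox genes called between sorted GFP cells and WT crypts of the colon, in all 6 groups, each panel on its own linear axis. Hoxb7 and Hoxd8 are highest in colon GFP, and the other 6 genes are lower in colon GFP than in both kinds of colon crypt.

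In the ileum 2 Hox genes were lower and 2 higher in sorted cells than in WT crypts, of 26 tested, against 28.1% of all genes lower and 24.6% higher, so both counts lie below the background share. Hoxb8 had 8.07 and 3.91 CPM in ileum WT, 5.31 and 5.86 in KO and 3.06, 0.367 and 1.28 in GFP, without overlap (-1.99 ± 0.58, edgeR adjusted p = 0.0101, and 0.0992 without ileum WT 1). Hoxb3 had 4.34 and 1.5 CPM in WT and 1.87, 0 and 0.286 in GFP, which overlapped (-2.14 ± 0.81, adjusted p = 0.0395). Without ileum WT 1 the adjusted p (edgeR) of Hoxb3 was 0.317 and 1 Hox gene, Hoxa5, was called. Summed stromal markers also fell here, from 168 to 198 CPM in WT to 18.4 to 21.3 in GFP, with 16 of 17 of them counted in each WT library and 8 to 14 in GFP, and their part was not tested.

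The 2 genes called higher in ileum GFP rested on few counts. Hoxa13 had 0, 4 and 3 counts and Hoxd13 had 0, 12 and 0 in ileum GFP, against none in ileum WT (at least 2.79-fold and 4.78-fold higher, edgeR adjusted p = 0.024 and 0.0462). Without ileum GFP 2 Hoxd13 had no count in either group and the adjusted p (edgeR) of Hoxa13 was 0.0819, and Hoxb8 alone stayed called. That library also held all 13 Hoxb13 counts and all 12 Hoxa7 counts of ileum GFP. Its level of the colon epithelial gene Car1 was 0.734 CPM, against 0.341 and 0.143 in the other ileum GFP libraries.

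Hoxb5, Hoxb6 and Hoxb9 set ileum GFP 1 apart from the other ileum GFP libraries. In libraries 1 to 3 Hoxb5 had 20.8, 1.59 and 3.28 CPM, Hoxb6 had 14.3, 2.2 and 2.86, and Hoxb9 had 34.4, 10.5 and 12.4. Library 1 lay within or above the ileal crypts for all 3 genes, and the other libraries lay below the ileal crypts for Hoxb6 and Hoxb9. None was called between ileum GFP and WT, and without ileum GFP 1 Hoxb6 fell by 2.20 and Hoxb9 by 1.57 on the log2 scale (edgeR adjusted p = 0.000265 and 8.6e-05).

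Summed over Hoxb2 to Hoxb9 the level was 122 ± 3.48 CPM in colon WT, 118 ± 14.9 in colon KO and 99.99 ± 11.6 in colon GFP. In the ileum it was 68.5 ± 28.8, 67.4 ± 9.83 and 49.1 ± 39 CPM, and the 3 ileal groups overlapped. Genes of paralog groups 10 to 13 summed to 302 ± 19.6 CPM in colon WT, 355 ± 4.76 in colon KO and 181 ± 46.3 in colon GFP. They summed to at most 0.312 CPM in ileal crypts and to 0, 3.55 and 0.714 in ileum GFP.

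**Figure D4:**
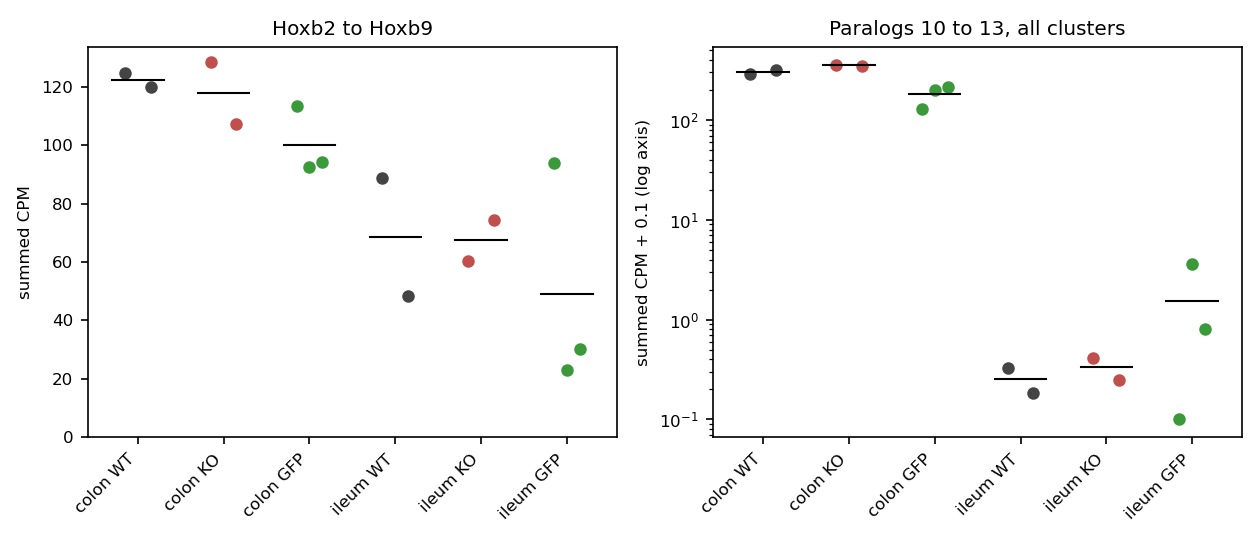
Summed CPM per library (points) and group mean (bar) of Hoxb2 to Hoxb9 on a linear axis (left) and of all genes of paralog groups 10 to 13 on a log axis after adding 0.1 (right). On the left ileum GFP 1 (94.0 CPM) lies above the ileum crypts and among the colon GFP libraries, and on the right every ileal library, the highest being ileum GFP 2 (3.55 CPM), lies below every colon library.

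Noncoding and flanking genes of the clusters were also higher in the colon. Of 17 listed genes 9 were tested, and 6 were higher in colon than ileum in WT crypts, 6 in KO, 8 over all crypts and 4 in GFP cells, with none lower. Among all genes tested 10.2, 13.1, 19.2 and 12.6% were higher in these comparisons. Hottip, Evx1 and Evx2 had no count in the ileal crypts, and Hoxa11os had 1, so they passed the filter on low counts through the colon groups. In crypts a lower level of these genes in the colon could not have been called. Hoxa11os, the antisense transcript of Hoxa11, had 56.3 and 69.8 CPM in colon WT and 0.0762 and 0 in ileum WT, and 14.7, 17.4 and 14.9 in colon GFP, lower than in colon WT (-2.01, edgeR adjusted p = 6.74e-05). Hottip, a noncoding RNA at the 5′ end of the Hoxa cluster, had 13.8 and 22.5 CPM in colon WT and no count in ileum WT. Hoxaas3 rose in colon GFP, to 23.4, 27.6 and 25.9 CPM from 4.33 and 8.34 in colon WT (2.01, adjusted p = 0.00126), while Hoxa7, with which it shares sequence on the other strand, did not (-0.20 ± 0.41, adjusted p = 0.719). Evx1 and Evx2, the homeobox genes beyond Hoxa13 and Hoxd13, were counted in all colon crypt libraries, at 1.13 to 3.93 CPM, and in no ileal crypt library.

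Of the regulators, the ParaHox gene Cdx2 was at like levels in colon and ileum WT crypts (237 and 207 against 236 and 199 CPM). In GFP cells it was 21.4, 18.8 and 33.3 CPM in the colon and 25.4, 20.6 and 15.4 in the ileum, lower than in WT crypts with log2 differences of -3.18 and -3.41 (edgeR adjusted p = 4.41e-07 and 1.82e-07). Cdx1 was higher in colon than ileum in WT crypts (0.38, adjusted p = 0.0399) and in GFP cells (0.68, adjusted p = 0.0269). Only these 2 of the 6 ParaHox genes were tested.

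None of the 7 tested HOX cofactor genes (of 9 listed) was called between the tissues in WT crypts or GFP cells, and 1, Meis3, was higher in colon KO crypts (1.31, edgeR adjusted p = 0.00596). Over all crypts 2 of the 7 were higher in the colon and 1 lower, against 19.2% and 18.7% of all genes. Pbx3 was higher in GFP cells than in WT crypts in both tissues (0.77 and 1.69, adjusted p = 0.0353 and 0.000299). It was the only cofactor gene called in the colon, and in the ileum Meis1 (-3.18, adjusted p = 0.0178) and Pknox1 (-0.61, adjusted p = 0.0151) were lower in GFP cells. Of all genes tested 22.3% were higher and 23.6% lower in GFP cells than in WT crypts of the colon, and 24.6% and 28.1% in the ileum. Between colon and ileum 10.2% of all genes tested were higher and 9.71% lower in the colon in WT crypts, and 12.6% and 10.2% in GFP cells. Of 22 Polycomb genes 1 was higher and 4 lower in colon than ileum WT crypts, and 2 and 4 in GFP cells. Suz12, a core subunit of Polycomb repressive complex 2, was lower in colon in both, with log2 differences of -0.74 and -0.61 (adjusted p = 0.00183 and 0.00933), and Phc1, of Polycomb repressive complex 1, was higher in both (0.89 and 0.90, adjusted p = 0.00865 and 0.0134). Of 12 trithorax and H3K27 demethylase genes 0 were higher and 1 lower in colon WT crypts, and 0 and 7 in GFP cells, among them the methyltransferase genes Kmt2a, Kmt2b, Kmt2c and Kmt2d.

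Of 12 tested retinoic acid pathway genes (of 18 listed) 3 were higher and 0 lower in colon than ileum WT crypts, and 4 and 0 in GFP cells. In KO crypts 2 were higher and 1, the receptor gene Rara, was lower (-0.57, edgeR adjusted p = 0.0301), against 13.1% and 12.6% of all genes. The receptor gene Rarg had 15.1 and 17.9 CPM in colon WT and 4.34 and 4.15 in ileum WT (1.97, edgeR adjusted p = 0.000394), and it was higher in colon GFP than ileum GFP as well (2.58, adjusted p = 0.000507). The synthesis gene Aldh1a2 had counts in each crypt library, at 0.601 to 2.95 CPM, and none in any GFP library. In GFP cells 6 of the 12 were lower than in WT crypts in the colon and 7 in the ileum, with none higher, against 23.6% and 28.1% of all genes lower. No gene of these 6 lists was called between KO and WT crypts in either tissue. Only 0.153% of all genes tested were called in the colon and 1.22% in the ileum, so 0 calls do not set these lists apart.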

How the data were processed

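Total RNA of 14 mouse libraries in 6 groups was sequenced. The deposited values are raw read counts per gene, which the authors made with TopHat 1.4.1 and HTSeq on mm9, as recorded in the submitters' processing notes. Neither those notes nor the labels state which HTSeq version, gene annotation or strand option was used. The 5 summary lines of each table stayed out of library sizes (42.4 to 68.6% of all lines' counts). Symbols, exon lengths and overlaps came from GENCODE M21 on GRCm38, and 31004 of 36536 identifiers had a symbol.

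CPM were computed with TMM factors over all libraries. Tests used edgeR 4.0.16 in R 4.3.3 (quasi-likelihood, genes with low counts filtered, Benjamini-Hochberg over all genes tested, called at adjusted p under 0.05). Crypt comparisons were fitted on the 8 crypt libraries (14415 genes), comparisons with GFP cells on all 14 (15274 genes), without a replicate block. DESeq2 1.42.0 was an alternative, beside size factors, TMM without mitochondrial ribosomal RNA, no filter, other sets of libraries, a replicate block and each library left out. The scripts were tested on simulated data. Counting intervals (95%) and the floor of 3 counts cover counting error only. Where groups are said not to overlap, the share of all genes tested without overlap was not computed. Crypt libraries of the same number deviated together across tissues (r = 0.256 in WT, 0.292 in KO). With 2 libraries per group both pairs give the same r. The main fits ignored this pairing, and the replicate block was run as an alternative.

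The genes and lists were chosen with earlier results of these data known. Any Hox gene could be named, with values per library for those called in at least 1 comparison or averaging at least 1 CPM in a group. Of each other list, called members and the 3 most abundant uncalled ones could be named.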

Additional observations from a re-analysis of the deposited data

How the results depend on the processing

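Size factors from DESeq2 and TMM without mitochondrial ribosomal RNA changed no count of Hox genes called in any of the 10 comparisons. For GFP cells against WT crypts in the ileum the 4 calls became 9 without the filter on low counts, 0 of 8 Hox genes tested with only the compared groups in the fit (Hoxb8 at adjusted p 0.0688, Hoxb3 at 0.166), 2 with the replicate block (Hoxb3 at 0.0820, Hoxd13 at 0.0829), and 1 without colon GFP 1 and ileum GFP 2 together, an alternative chosen after seeing the data. For the tissue difference of GFP cells minus WT crypts the 0 calls became 3 without the filter (Hoxa13, Hoxb13 and Hoxd13), 1 by DESeq2 (Hoxa13) and 2 with a block from numbers in the names of the deposited tables (Hoxa13 and Hoxb9), also chosen after seeing the data. The cause was not tested. Without the filter the median of all genes moved to 0.15 for colon against ileum GFP cells, 0.33 for GFP cells against WT crypts in the colon and 0.23 for the tissue difference.

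With each library left out in turn, Hox calls between the tissues numbered 9 to 20 in WT crypts, 12 to 14 in KO crypts, 18 to 22 over all crypts and 18 to 21 in GFP cells. They numbered 0 to 0 between KO and WT in the colon, 0 to 1 in the ileum, 2 to 7 between GFP cells and WT crypts in the colon, 1 to 6 in the ileum, and 0 to 0 (KO) and 0 to 2 (GFP) for the tissue differences from WT. A group left with 1 library was assumed to vary like the others. The calls between the tissues were of genes higher in the colon, except for Hoxc8. Without ileum WT 2 it passed the filter and was called lower in the colon over all crypts, with 11 counts in ileum WT 1.

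With the replicate block there were 17 calls in WT crypts, 16 in KO, 22 over all crypts, 18 in GFP cells, 0 in both KO comparisons, 6 for GFP cells against WT crypts in the colon (Hoxa10, Hoxb3 and Hoxd13 at adjusted p of 0.0700, 0.0561 and 0.0739, Hoxa13 newly called at 0.0238) and 0 for both tissue differences. GFP libraries of the same number did not deviate together (r = 0.00863, -0.0935 and 0.0743). KO and WT libraries of the same number did not either (r = -0.0110 in colon and 0.0751 in ileum). By a date in the names of the deposited tables, colon GFP 1 pairs with ileum GFP 2 (r = 0.0851) and colon GFP 2 with ileum GFP 3 (r = 0.0292). Whether any of these samples share a litter, a day or a batch cannot be told from these values. At 0.0683 to 0.17 CPM per count, ileal levels of the Hoxa and Hoxd genes of high paralog number lie at the limit of detection, and differences between ileal groups were not detectable for genes with 3 or fewer counts per group.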

Other observations

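Among the ileal libraries the summed level of Hoxb2 to Hoxb9 and that of Gata4, a transcription factor known from the proximal small intestine, were read side by side after their values were seen. In ileum WT 1 and 2 Gata4 had 7.46 and 24.6 CPM beside Hoxb sums of 88.9 and 48.2 CPM. In ileum KO 1 and 2 it had 25.8 and 17.0 CPM beside 60.5 and 74.4. In ileum GFP 1, 2 and 3 it had 5.62, 26.3 and 14.1 CPM beside 94.0, 23.1 and 30.1. Within WT, KO and GFP alike the library with the least Gata4 had the highest Hoxb sum, in groups of 2 to 3 libraries, and no test was made.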
